A study of Drosophila melanogaster with 4 samples.

Results

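Binding of the zinc finger protein DREF along chromosome arm 3L was described in Kc167 cells, a cell line from Drosophila melanogaster embryos. DREF had been precipitated with crosslinked chromatin and the recovered DNA sequenced (ChIP-seq). The sites were chosen by position alone: every peak that the authors' lists place on 3L was taken. This gave 159 of the 1113 peaks in the list for mitotic cells and 301 of the 1937 peaks in the list for total cells. Both conditions used the same line, grown in serum-free medium, and the same rabbit polyclonal antibody to DREF. Mitotic and total cells were each represented by 2 libraries, and the labels do not describe how mitotic cells were obtained. One list was deposited per condition, with no value per library and no read counts, so there is no replicate error and the depth is unknown. All values therefore describe a pair of lists from 1 cell line.

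DREF binds the DNA replication-related element, a short palindromic sequence found in promoters of genes for DNA replication, the cell cycle and general cell maintenance. It is also studied together with insulator proteins, because its element overlaps that of the boundary factor BEAF-32. During mitosis chromosomes are condensed and many transcription factors leave them, which makes the sites that are still occupied in mitotic cells of interest. Arm 3L is the left arm of the third chromosome, and its coordinates run from the telomere at the low end to the centromere at the high end. Deposited starts were taken as counted from 0, as is usual in peak lists of this format, and positions are given counted from 1. The sequence names are those of genome Release 5. The genes, promoters and bases under the peaks were not analysed here, since no genome or annotation of that release was at hand.

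Nearly every mitotic peak on 3L lay on a total peak, whereas about as many total peaks lacked a mitotic partner as had one. Overlap by at least 1 bp, called sharing here, was found for 157 of 159 mitotic peaks (98.7%, exact Clopper-Pearson 95% interval 95.5 to 99.8%). Over all sequences this share was 98.1%. Of the 301 total peaks, 157 were shared (52.2%, 46.4 to 57.9%) and 144 were not, against 56.1% shared over all sequences. The pairs were one to one, with 157 pairs in all. Intervals treat peaks as independent and cover counting error only. A site missing from the mitotic list may be unbound or below the limit of detection, and at unknown depth these cannot be told apart.

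The strongest site of the arm lay near the telomere, at 505377 to 506734. Each deposited peak carries a score from the authors, without a stated unit or common scale. It was 40.71 there in the mitotic list and 22.34 in the total list, the second highest of all total peaks. The next lay at 2851426 to 2852529, with scores of 33.32 in the mitotic and 18.96 in the total list. At 6972685 to 6973771 the scores were 35.23 in the mitotic and 18.85 in the total list. These 3 strongest sites of the total list were thus all in the telomere-near part of the arm, and they were also the 3 strongest of the mitotic list, in another order.

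Sites of similar height followed in the middle and centromere-near parts. The site at 14104174 to 14105255 had scores of 31.42 in the mitotic and 18.18 in the total list. At 16640497 to 16641672 they were 31.04 in the mitotic and 16.51 in the total list, and at 14530083 to 14531214 they were 27.8 in the mitotic and 15.26 in the total list. The site at 19133055 to 19134194 had 22.09 in the mitotic and 15.12 in the total list. The other sites among the strongest 10 were close to it in the total list. That at 8990641 to 8991764 had 25.13 in the mitotic and 14.86 in the total list. At 2530960 to 2532062 the scores were 21.11 mitotic and 14.85 total, and at 16043675 to 16045535 they were 21.14 mitotic and 14.28 total. The strongest 10 were thus spread over the length of the arm, and 7 of them were also among the 10 strongest mitotic peaks of 3L. Of the 100 strongest total peaks of the whole list, 14 were on 3L, 12 on 2L, 10 on 2R, 30 on 3R and 28 on X. Of all 1937 total peaks, 301 were on 3L, 215 on 2L, 343 on 2R, 396 on 3R and 343 on X. The remaining peaks of both counts lay on other sequences. The share of 3L among the strongest peaks was thus near its share of all total peaks, and these counts were not tested.

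**Figure D1:**
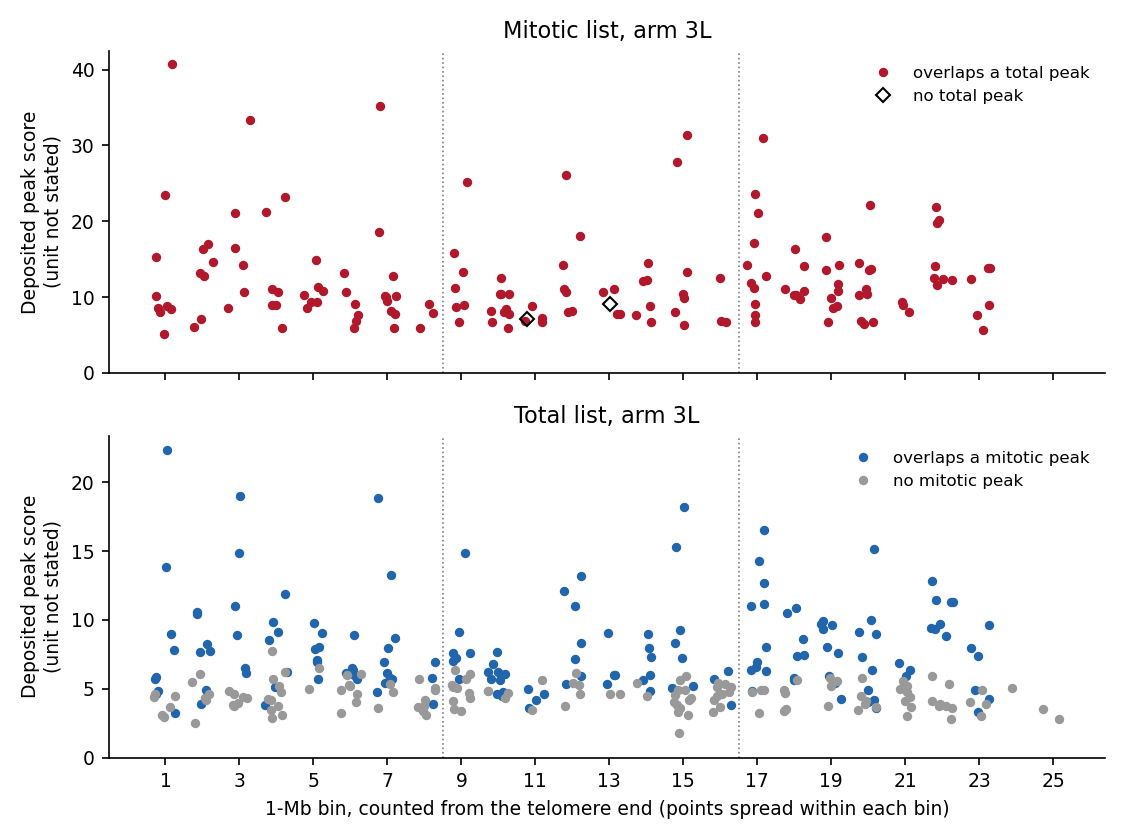
Deposited score of each 3L peak (vertical axis, unit not stated) by 1-Mb bin counted from the telomere end (horizontal axis), with the mitotic list above and the total list below. Dotted lines part the telomere-near, middle and centromere-near bins. The strongest peaks, up to 40.71 in the mitotic and 22.34 in the total list, are spread along the arm, and total peaks without a mitotic peak (grey) all lie at 7.75 or below.

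To follow the sites along the arm, peaks were counted in 1-Mb bins by their middle, and the bins were joined into a telomere-near part (bins 1 to 8), a middle part (bins 9 to 16) and a centromere-near part (bins 17 to 25). The telomere-near part held 55 mitotic and 107 total peaks, the middle part 50 mitotic and 97 total peaks, and the centromere-near part 54 mitotic and 97 total peaks. The mitotic list averaged 6.88 ± 2.10 peaks per Mb in the telomere-near, 6.25 ± 2.05 in the middle and 6.75 ± 3.69 in the centromere-near part (SD over 8 full bins each). The total list averaged 13.4 ± 2.67, 12.1 ± 5.25 and 11.9 ± 4.88 peaks per Mb in the same order. The centromere-near means include bin 24, with 0 mitotic peaks and 1 total peak, whereas bins 17 to 23 held 10 to 16 total peaks each. The means of the parts were not tested against each other. Over the 24 full bins of 3L the mitotic list had 6.63 ± 2.62 and the total list 12.5 ± 4.27 peaks per Mb. On the other main arms (2L, 2R, 3R and X, 92 bins) the mitotic list had 8.22 ± 4.01 and the total list 13.9 ± 6.21 peaks per Mb. The means of 3L were thus below those of the other main arms together in both lists. Low density was not particular to 3L, since 2L alone had 5.5 mitotic and 9.64 total peaks per Mb (22 bins). The means of 2R, 3R and X were above those of 3L in both lists. No test was made because neighbouring bins are not replicates.

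The densest stretches of total peaks lay at 14000001 to 15000000, with 7 mitotic and 20 total peaks, and at 3000001 to 4000000 and 8000001 to 9000000, each with 7 mitotic and 18 total peaks. In these 3 bins 35.0%, 38.9% and 38.9% of total peaks were shared, so most of their peaks were in the total list alone. The mitotic list was densest elsewhere, at 16000001 to 17000000, where 11 mitotic peaks met 15 total peaks. Over the 7 full bins with at least 15 total peaks, 59 of 118 were shared (interval 40.7 to 59.3%), and over the 5 full bins with at most 9, 21 of 30 were (70.0%, 50.6 to 85.3%). These intervals overlap. Across the 24 full bins the mitotic and total counts had a Spearman rho of 0.62, a description of bins that share sites and libraries.

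**Figure D2:**
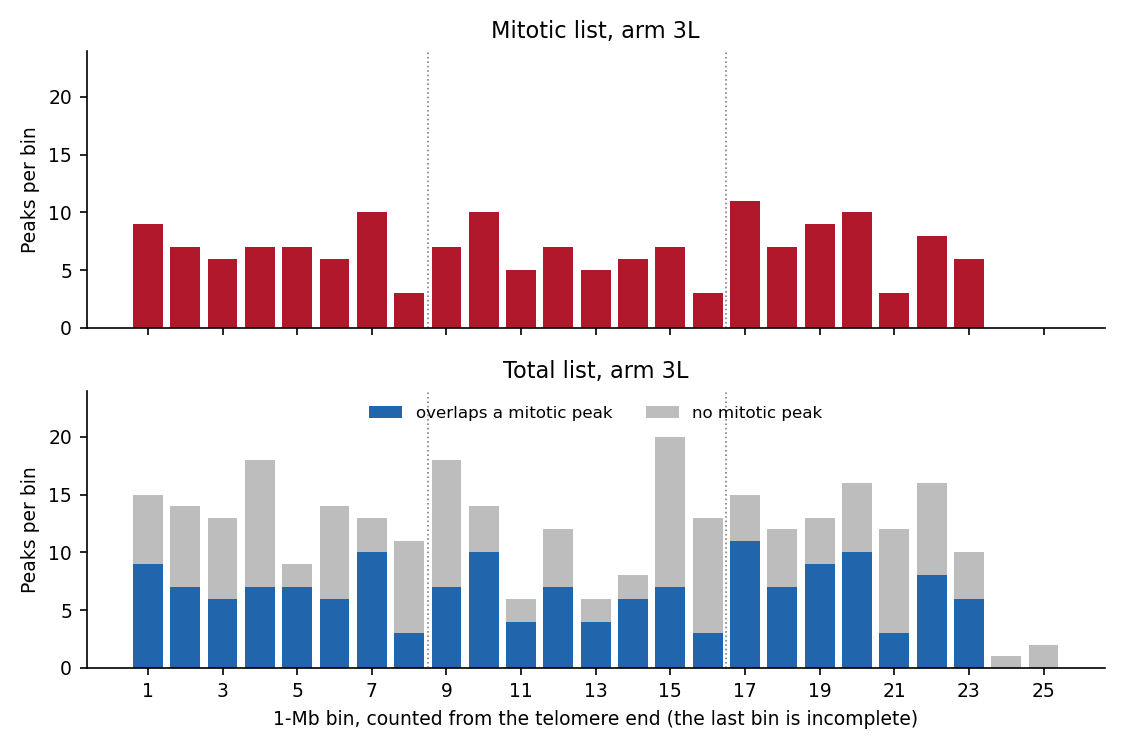
Number of 3L peaks (vertical axis) in each 1-Mb bin counted from the telomere end (horizontal axis), for the mitotic list above and the total list below, where blue marks peaks that overlap a mitotic peak and grey those that do not. The tallest total bin holds 20 peaks and the tallest mitotic bin 11, and bin 24 holds 0 mitotic peaks and 1 total peak.

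Among the bins with mitotic peaks, sharing was lowest in 3 separate bins, and their highest total scores were between 6.3 and 6.92. The bins closest to the centromere, with 3 total peaks in all and no mitotic peak, are described with the end of the arm. At 7000001 to 8000000 there were 3 mitotic and 11 total peaks (27.3% shared), and the highest total score was 6.92. At 15000001 to 16000000 there were 3 mitotic and 13 total peaks (23.1% shared), with a highest total score of 6.3. At 20000001 to 21000000 there were 3 mitotic and 12 total peaks, of which 9 were unshared, with a highest total score of 6.88. A low highest score did not go with low sharing in every bin. At 10000001 to 11000000, where the highest total score was 5.64, 4 of 6 total peaks were shared, and at 9000001 to 10000000, where it was 7.66, 10 of 14 were.

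At the centromere end the mitotic list stopped before the total list, whose last peaks were few and far apart. The last mitotic peak lay at 22887377 to 22888648 (score 13.9), with a total peak of the same borders (9.63). Beyond it were 4 total peaks with scores of 2.81 to 5.03, none of them shared. The longest gap between neighbouring total peaks of the arm, 1.28 Mb, lay here at 23106712 to 24385050. The last total peak (24457100 to 24458149, score 3.52) ended 1.57 Mb beyond the last mitotic peak. At the telomere end the total list began at 146037 to 146851 (score 4.6) and the mitotic list at 246500 to 247439 (score 10.09), so that a single total peak preceded the first mitotic one. The separate heterochromatic sequence named 3LHet held 3 total peaks, with scores of 2.92 to 5.57, and 0 mitotic peaks.

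Away from the centromere, gaps in the total list were shorter. The next longest were 462 kb at 9755910 to 10218157, 416 kb at 12411173 to 12826852, 380 kb at 7425983 to 7806243 and 366 kb at 13038099 to 13403821. The longest gaps of the mitotic list were not empty of DREF peaks in total cells. The longest, 776 kb at 7354120 to 8130400, held 7 total peaks with a median score of 3.79. The next, 743 kb at 20090867 to 20834306, held 8 total peaks with a median score of 4.885. The other gaps among the longest 5 were 664 kb at 4841281 to 5504781, 556 kb at 12271012 to 12826852 and 522 kb at 3617062 to 4138585, and they held 2, 2 and 4 total peaks. The median gap was 99.8 kb in the mitotic list (interquartile range 41.6 to 188 kb, 158 gaps) and 46.7 kb in the total list (20.6 to 99.6 kb, 300 gaps). On the other main arms the median gap was 63.1 to 122 kb in the mitotic list and 29.1 to 50.3 kb in the total list, with 2L the highest in both, so 3L lay within their range.

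**Figure D3:**
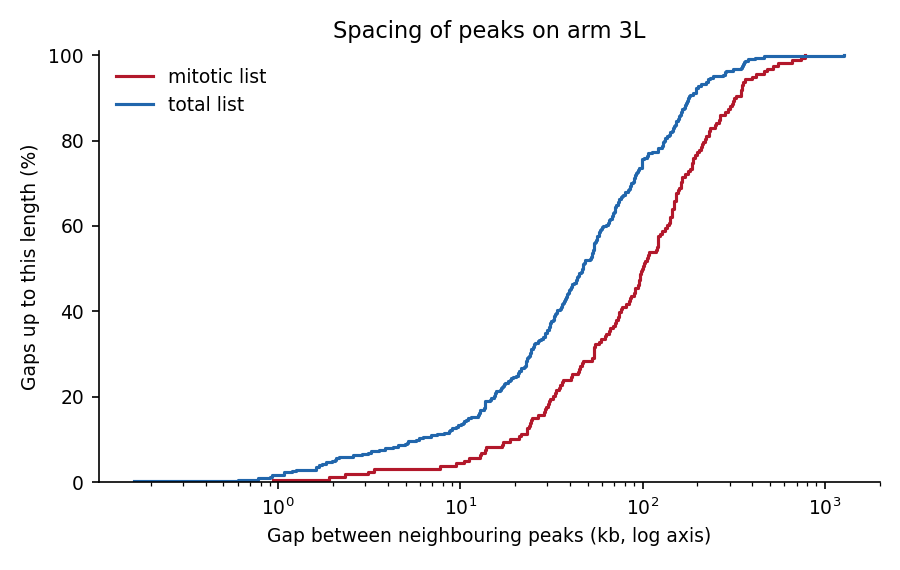
Cumulative share of gaps between neighbouring 3L peaks (vertical axis, percent) by gap length (horizontal axis, kb, log scale), for the mitotic and the total list. The mitotic curve lies to the right of the total curve over most of its length, with medians of 99.8 and 46.7 kb.

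Close neighbours were mostly pairs. With gaps under 10 kb taken to join peaks, 74 total peaks formed 34 groups, of which 30 were pairs. The largest, at 7327889 to 7354152, joined 5 total peaks over 26.3 kb, of which 2 were shared, with scores of 3.41 to 6.92. Groups of 3 lay at 13029521 to 13038098, where all 3 were shared, at 14021725 to 14030526, where none was, and at 17458543 to 17469779, where 1 was. The pair nearest the telomere, at 604421 to 607654, had 1 shared peak. Of the 74 grouped peaks 28 were shared (37.8%, 26.8 to 49.9%), and of the 227 single peaks 129 were (56.8%, 50.1 to 63.4%). The grouped peaks were also weaker, with a median score of 4.915 against 5.72 for single peaks, and the part of the score in this difference was not tested.

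Whether a site of the total list had a mitotic peak was compared along the arm. Shared peaks were 55 of 107 in the telomere-near part (51.4%, 41.5 to 61.2%), 48 of 97 in the middle part (49.5%, 39.2 to 59.8%) and 54 of 97 in the centromere-near part (55.7%, 45.2 to 65.8%). Between the centromere-near and the telomere-near part the odds ratio was 1.19 (exact 95% interval 0.66 to 2.14), which did not pass the threshold of 0.05 (Fisher's exact test, two-sided, p = 0.58, adjusted p = 0.65 by the Benjamini-Hochberg method over 9 tests of sharing). Among the stronger 50% of the total list (scores of 5.63 or more), 44 of 47 centromere-near and 45 of 53 telomere-near total peaks were shared, an odds ratio of 2.61 that did not pass (Fisher's exact test, two-sided, p = 0.21, not adjusted). A narrower measure counted only mitotic peaks of the stronger 50% of their list (10.28 or more). Such a peak was overlapped by 36 of these 47 centromere-near and 26 of these 53 telomere-near total peaks, an odds ratio of 3.40 (unadjusted p = 0.007 by Fisher's exact test, two-sided). By that measure a total peak with a weaker mitotic peak counts as unshared. The limit of 10.28 lay between the median mitotic scores of the telomere-near (10.09) and centromere-near (11.705) parts. The measure thus mixes sharing with mitotic score. With the arm divided once, at 12 Mb, and all peaks counted, the odds ratio was 0.943 (Fisher's exact test, p = 0.82).

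Of the main arms, 3L had the lowest share of total peaks with a mitotic peak, but the difference was small. It was 52.2% on 3L against 58.5% on the other main arms together (759 of 1297, 55.8 to 61.2%), with 56.7% on 2L, 55.1% on 2R, 59.8% on 3R and 61.5% on X. The odds ratio of 3L to the other main arms was 0.773 (exact 95% interval 0.596 to 1.002). It passed the threshold before adjustment and not after (Fisher's exact test, two-sided, p = 0.045, adjusted p = 0.14). The interval was computed by a different exact rule than the p, and it just included 1. Against single arms the adjusted p was 0.14 for X and 3R and 0.61 for 2L and 2R (Fisher's exact tests). When peaks of like score were compared, in 5 bands cut at the quintiles of the whole total list, the common odds ratio by the Mantel-Haenszel method was 0.867 (0.613 to 1.23, exact conditional test, two-sided, p = 0.42, adjusted p = 0.61). Among the stronger 50% of the total list, 124 of 142 peaks on 3L (87.3%) and 599 of 655 on the other main arms (91.5%) were shared, which did not pass (odds ratio 0.644, unadjusted p = 0.15 by Fisher's exact test, two-sided). With only mitotic peaks of 10.28 or more counted, the shares were 59.9% on 3L and 59.7% on the other main arms.

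The share of 3L sites with a mitotic peak was higher in each higher band of the total list's score. Among total peaks with scores of 1.8 to 4.19, 11 of 67 were shared on 3L (16.4%, 8.49 to 27.5%) and 26 of 254 on the other main arms (10.2%, 6.80 to 14.6%). From 5.07 to 6.16, 31 of 66 were shared on 3L (47.0%, 34.6 to 59.7%) and 141 of 243 on the other main arms (58.0%, 51.5 to 64.3%). Above 8.33, all 54 peaks on 3L and all 260 on the other main arms were shared. The exact interval of this share was 93.4 to 100% on 3L and 98.6 to 100% on the other main arms. The intervals of 3L and the other main arms overlapped in each band.

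**Figure D4:**
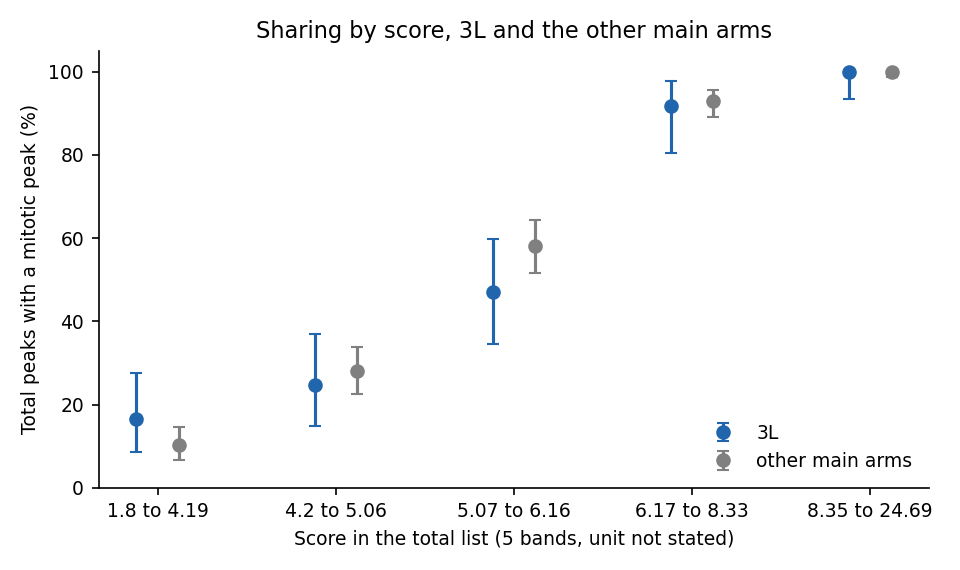
Share of total peaks that overlap a mitotic peak (vertical axis, percent) in 5 bands of the total list's score (horizontal axis), for 3L and for the other main arms. Points are shares and bars exact 95% intervals, which overlap between 3L and the other arms in every band as the shares climb to 100%.

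The 157 shared total peaks of 3L had a median score of 7.14 (interquartile range 5.73 to 9.28) and a median width of 1048 bp. The 144 total-only peaks had a median score of 4.54 (3.75 to 5.15) and a median width of 950.5 bp. In the 3 parts, from the telomere to the centromere, the median score of shared peaks was 6.97, 6.21 and 7.995, and that of total-only peaks was 4.39, 4.63 and 4.15. Shared peaks thus had the higher median in each part. Whether the lists were called on separate reads is not stated. Reads common to both would link sharing to the total score, and this was not tested.

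The strongest sites of total cells that had no mitotic peak reached only moderate scores. The first, at 3070388 to 3071433, scored 7.75 in the total list, and each of the 65 total peaks of 3L above that score was shared. It was followed by 4405607 to 4406543 (6.53), 8387784 to 8388668 (6.36), 3222593 to 3223588 (6.24) and 11674584 to 11675586 (6.13). Of these 5 sites, 3 were in the telomere-near part, 2 in the middle part and 0 near the centromere. All 144 total-only peaks were spread as 52, 49 and 43 in the same order, and so few sites show no difference between the parts. At the other end, the weakest shared total peak (647645 to 649750) scored 5.14 in the mitotic and 3.25 in the total list. A further 12 total peaks scored below it. The weakest of them, at 14307172 to 14309434 (score 1.8), was also the lowest of the whole total list.

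Peaks found in mitotic cells alone numbered 2 on 3L, both in the middle part. One, at 12854362 to 12855144, was 783 bp wide and scored 9.14 in the mitotic list, and the nearest total peak was 26.6 kb away. The other, at 10277941 to 10278347, scored 7.05 in the mitotic list and lay 59.1 kb from the nearest total peak. At 407 bp it was the narrowest mitotic peak of the arm. Both scored below the median of 10.47 of the shared mitotic peaks of 3L.

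At the shared sites the scores of the lists followed each other closely over their whole range. Over the 157 pairs Pearson's r was 0.94 and Spearman's rho 0.90, given as a description across sites of the same libraries. Among the 52 pairs of lowest total score (3.25 to 5.98) r was 0.52 and rho 0.56. Among the next 52 (5.98 to 8.53) r was 0.48 and rho 0.51. In the 53 pairs of highest total score (8.61 to 22.34) r was 0.94 and rho 0.84. The groups of lower score span much narrower ranges, which lowers r and rho, so these values do not compare closeness between groups. The ratio of mitotic to total score had interquartile ranges of 1.37 to 1.74, 1.30 to 1.64 and 1.40 to 1.73 in the same order. Over all 157 pairs mitotic scores were a median of 1.498 times the total scores (interquartile range 1.35 to 1.69). This ratio was 1.498 in the telomere-near, 1.52 in the middle and 1.49 in the centromere-near part, and these medians were not tested against each other. Because the scales of the lists are not stated to be common, a ratio above 1 does not show more binding in mitotic cells. Departures from the median ratio are limited too, because a pair requires a called mitotic peak. No mitotic peak of 3L scored below 5.14, so a total peak weaker than that could enter only with a ratio above 1.

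A few sites departed from the median ratio. At 19475823 to 19476821 the mitotic score was 11.04 and the total score 3.64, a ratio of 3.03 and the highest of the arm. The mitotic peak there was 492 bp wide and the total peak 999 bp. At 22448665 to 22449679 the scores were 7.62 in the mitotic and 3.3 in the total list, a ratio of 2.31. Both of these total peaks were weak, where pairs of low ratio could not enter. The only site with a lower mitotic than total score was at 8527499 to 8528519, with 6.66 in the mitotic and 7.57 in the total list. These sites were singled out after their values were seen, and without replicate values their distance from the other sites has no error to be judged by.

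**Figure D5:**
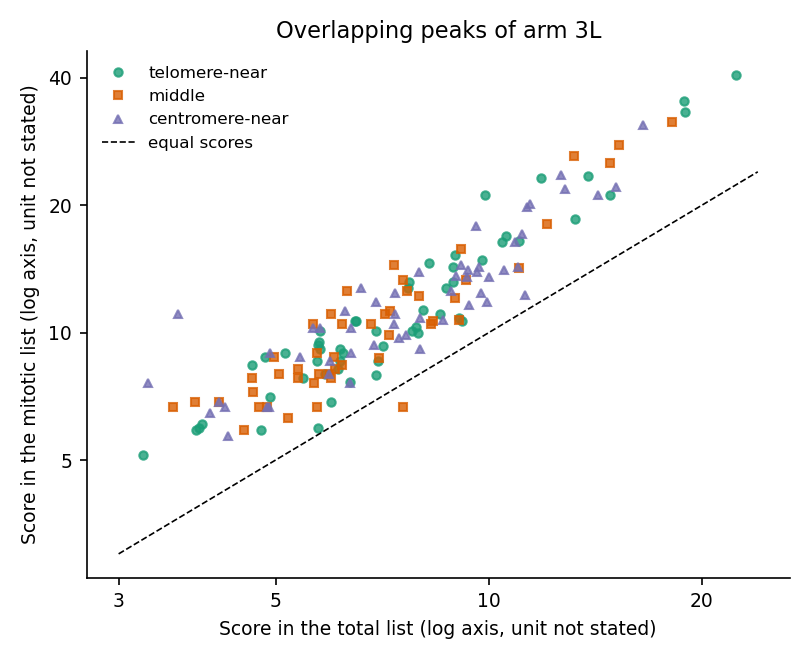
Score in the mitotic list (vertical axis) against score in the total list (horizontal axis) for the 157 overlapping pairs of 3L, both on log axes and without a stated unit, marked by part of the arm. Of the 157 points, 156 lie above the line of equal scores, and the parts are intermixed.

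Mitotic peaks were narrower and lay inside their total peaks. In all 157 pairs no mitotic border fell outside the total peak, and the mitotic peak was narrower in 154 and equally wide in 3. The median inset was 66 bp on the telomere side (interquartile range 28 to 123 bp) and 58 bp on the centromere side (23 to 133 bp). Starts were identical to the base in 19 pairs (12.1%, 7.45 to 18.3%) and ends in 22 (14.0%, 8.99 to 20.4%). Insets of 1 to 10 bp had a mean of 0.3 pairs per base pair at the start and 0.7 at the end. Both borders were identical at 1890553 to 1891572, at 11115819 to 11116878 and at 22887377 to 22888648, where the scores were 14.64, 26.09 and 13.9 in the mitotic list and 8.23, 13.2 and 9.63 in the total list. Whether common reads set these borders was not tested.

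Width ranged from 407 to 1496 bp in the mitotic list and from 592 to 3467 bp in the total list of 3L. Wider peaks tended to score higher, with a Spearman rho of score and width of 0.37 in the mitotic and 0.45 in the total list. Of the 11 total peaks wider than 1500 bp, 7 were shared, against 157 of all 301 total peaks of 3L (52.2%). The difference was not tested. The 2 widest total peaks were nevertheless weak. The widest, at 652334 to 655800 (3467 bp, score 2.93), and the next, at 14307172 to 14309434 (2263 bp, score 1.8), had no mitotic peak. The peak at 7348091 to 7350234 was 2144 bp wide with a total score of 3.9, and the mitotic peak within it covered 906 bp with a score of 5.96. A strong wide peak also occurred, at 16043675 to 16045535 (1861 bp, total score 14.28), where the mitotic peak covered 966 bp. The narrowest total peak, at 14975656 to 14976247 (592 bp), had no mitotic peak, and the widest mitotic peak lay at 13033767 to 13035262 (1496 bp, score 6.66).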

How the data were processed

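DREF ChIP-seq was done on mitotic and total Kc167 cells with 2 libraries each, and the authors deposited 1 peak list per condition. Per the submitters' processing notes, Bowtie 0.12.5 was the aligner. Nothing in the sources used here names the peak caller, its threshold or the build, or says whether libraries were pooled, and input controls were not used here. The deposited score per peak has no stated unit. It was used within each list and to describe pairs.

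Peaks were called shared at an overlap of at least 1 bp. Shares carry exact Clopper-Pearson 95% intervals and two-sided Fisher's exact tests compared them over peaks, which are not biological replicates. The 9 tests of sharing were adjusted together. Tools were scipy 1.17.1, statsmodels 0.14.6, pandas 2.3.3, numpy 2.4.6 and matplotlib 3.10.9 under Python 3.11.15, and overlap and test were checked on simulated lists. The comparison within score bands by the Mantel-Haenszel odds ratio, with an exact conditional test over the bands, and that of the stronger total peaks with any mitotic peak were added after seeing the data.

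Sites to be named were the strongest 10, the strongest 5 without a mitotic peak, mitotic-only peaks, the densest and emptiest bins, the longest gaps, the largest groups and the first, last, weakest, widest and narrowest peaks. Sites and bins beyond this rule were picked after their values were seen: the bins of low sharing and those set beside them, the densest mitotic bin, the pairs of unusual score ratio or identical borders, and wide peaks other than the widest. The arm and the rules were chosen with earlier results of these data known. The reference table of genes is of Release 6, so no peak was given a gene and the planned search for the DREF element was not run.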

Additional observations from a re-analysis of the deposited data

How the results depend on the processing

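Of 22 alternative values, 13 kept their direction and side of the threshold or stayed within 1.5 times. Among these are the odds ratios with an overlap of 50% of the narrower peak. That rule could not change sharing on 3L, where the mitotic peaks of all 157 pairs lay inside their total peaks. The odds ratio of sharing between the centromere-near and telomere-near parts (1.19) was 3.40 and passed with the stronger 50% of each list, where total peaks with a weaker mitotic peak count as unshared. It was 2.61 and did not pass with the stronger 50% of the total list and any mitotic peak. It turned to 0.943 with the arm divided once at 12 Mb, and was 1.18 to 1.35 otherwise. The odds ratio of 3L to the other main arms (0.773, unadjusted Fisher's exact p = 0.045) no longer passed with peak middles within 250 bp (0.777), against 2L (0.831) or 2R (0.888) alone, within score bands (0.867) or in the stronger 50% of the total list with any mitotic peak (0.644), and turned to 1.01 in the stronger 50% of each list. The causes of these changes were not tested. Fewer peaks are counted with any single arm and with the stronger lists. Against 3R (0.731) or X (0.682) alone the odds ratio still passed before adjustment. Total peaks in groups numbered 128 with gaps under 20 kb and 52 under 5 kb, against 74. No paired analysis was possible because the deposited lists give no value for a single library, and none could be left out. Depth is unknown, so a missing peak may lie below the limit of detection.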

Other observations

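Shared and unshared sites of 3L also occurred in runs, given here as values with no test and picked for their length. The longest run of shared total peaks, 9 in a row, lay at 18949805 to 19476821, with total scores of 3.64 to 15.12. The longest run of total peaks without a mitotic peak, 8 in a row, lay at 20096724 to 20809658, with scores of 3.67 to 5.55. Runs of 7 unshared peaks lay at 7425087 to 8109632 and at 14747825 to 15041949, and a run of 7 shared peaks lay at 16846287 to 17346624. Of the 300 pairs of neighbouring total peaks, both were shared in 94, neither in 80 and 1 of the pair in 126. Of all 301 total peaks of 3L, 52.2% were shared. No count expected at that share was worked out, so these values do not show that shared sites cluster.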
